A study of Mus musculus with 2 samples.

Results

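The miR-181 family of the mouse is made from 6 hairpin genes in 3 clusters: Mir181a-1 with Mir181b-1 on chromosome 1, Mir181a-2 with Mir181b-2 on chromosome 2, and Mir181c with Mir181d on chromosome 8. The members were found by matching the identifiers of the count tables to GENCODE M21, which gave 6 of the 2202 miRNA genes counted. The family was selected on its own-strand counts per library, already known from earlier results, and its members by gene name alone. Total RNA was taken at 4 days of age from the left cerebral cortex of males of the strain B6CASTF1/J, the F1 cross of C57BL/6J and CAST/EiJ, and RNA under 30 nt was sequenced. The only group holds 2 libraries, called library 1 and library 2 after the biological replicate number in their labels. The labels number the males 3 and 4 but quote a single donor identifier, so they do not settle whether the spread between libraries is a spread between animals.

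A microRNA (miRNA) is cut from a hairpin transcript into a short strand from its 5′ arm (5p) or 3′ arm (3p), which guides Argonaute proteins to messenger RNAs mainly through its seed, bases 2 to 8. The miR-181 family is known in mice for setting the sensitivity of developing T cells to antigen, and it also acts in myoblast differentiation. In the brain it has been studied in neurons and in astrocytes. Its clusters are paralogs, each with a pair of hairpins, and the a and b hairpins on chromosomes 1 and 2 give the same 5p strands.

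The 5p strands are shown first because they define the family; capitals mark the seed. The sequences are RefSeq's for GRCm38.p6, the build of the tables (mm10), and carry the C57BL/6J reference bases.
miR-181a-5p (Mir181a-1 and Mir181a-2): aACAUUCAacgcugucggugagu
miR-181b-5p (Mir181b-1 and Mir181b-2): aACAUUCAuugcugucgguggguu
miR-181c-5p (Mir181c): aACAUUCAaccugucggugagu
miR-181d-5p (Mir181d): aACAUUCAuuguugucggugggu
All 4 carry the seed ACAUUCA, which no other mature miRNA in the RefSeq table has (4 of 4 names with it belong to the family). Counting from 1 at the 5′ end, miR-181b-5p and miR-181d-5p differ at a single shared position (C12U), and miR-181b-5p is 1 base longer. The miR-181c-5p strand is 1 edit away from miR-181a-5p, being 1 base shorter (22 against 23 nt). Hence c resembles a, and d resembles b.

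The 3p strands are shown next because they, unlike the 5p strands, tell the copies apart.
miR-181a-1-3p (Mir181a-1): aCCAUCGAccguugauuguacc
miR-181a-2-3p (Mir181a-2): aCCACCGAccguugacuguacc
miR-181c-3p (Mir181c): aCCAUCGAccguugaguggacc
miR-181b-1-3p (Mir181b-1): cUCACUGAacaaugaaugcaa
miR-181b-2-3p (Mir181b-2): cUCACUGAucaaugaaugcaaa
The 3p strands of the a copies differ by U5C and U16C, the first of them inside the seed. Those of the b copies differ by A9U and keep the seed UCACUGA. The 3p strands of Mir181a-1 and Mir181c share the seed CCAUCGA and differ by U16G and U19G.

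The 5p strands with the bases that follow them in the hairpin are given for the 4 copies, with capitals from the first base at which the copies of a pair differ.
Mir181a-1, chr1:137966468-137966498, plus strand: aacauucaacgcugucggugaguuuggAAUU
Mir181a-2, chr2:38852741-38852771, plus strand: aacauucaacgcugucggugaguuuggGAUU
Mir181b-1, chr1:137966650-137966681, plus strand: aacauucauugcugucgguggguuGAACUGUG
Mir181b-2, chr2:38853845-38853876, plus strand: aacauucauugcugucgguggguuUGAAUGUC
The a copies stay identical for 4 bases past the mature strand, while the b copies part at the base right after it. Extended at its 3′ end alone, a 5p read of an a copy therefore needs 5 further bases to match only 1 miRNA gene. That of a b copy needs 1 further base. The longest stretch the hairpins share is 28 nt between the a copies and 26 nt between the b copies. Between either a copy and Mir181c it is 17 nt. No stretch of 22 nt of Mir181c or Mir181d occurs in another miRNA gene, against 7 such stretches in each a copy and 5 in each b copy. The tables have the layout of STAR gene counts, in which a read placed at several sites is given to no gene. Such reads made up 46.1% of library 1 and 39.8% of library 2, and how many of them came from miR-181 is not known from the counts. The values of the a and b copies are therefore counts of what could be placed, and they are uncertain as levels of the shared mature strands.

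On mm10, Mir181a-1 (ENSMUSG00000065565.1; chr1:137966455-137966541) and Mir181b-1 (ENSMUSG00000065458.1; chr1:137966639-137966718) lie on the plus strand with 97 bases between the hairpins. Both overlap an exon of the long noncoding RNA A430106G13Rik and an intron of the transcript Gm4258 on the same strand. Mir181a-2 (ENSMUSG00000065423.1; chr2:38852735-38852810) and Mir181b-2 (ENSMUSG00000065578.1; chr2:38853830-38853918) are 1019 bases apart on the plus strand, opposite to an intron of Nr6a1, an orphan nuclear receptor gene. Mir181d (ENSMUSG00000076338.1; chr8:84178716-84178787) and Mir181c (ENSMUSG00000065483.2; chr8:84178873-84178961) are 85 bases apart on the minus strand. Both lie in an intron of Nanos3, a gene for a germ cell RNA-binding protein, on its strand. The opposite-strand count was 0 for all 6 members in both libraries.

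Before the values, the libraries differed widely. Own-strand counts at miRNA genes were 2999032 in library 1 and 3577964 in library 2, and values are given as CPM, the counts scaled to a library total of 1000000. The 13 neuron markers took 4.27% of counts in library 1 and 0.131% in library 2, where 4 of 13 were at 0, among them the 3 Mir124a copies. Those copies had only 8, 3 and 1 counts in library 1, so they were low in both libraries. The 8 skeletal muscle markers took 0.00730% in library 1, where 5 of 8 were at 0, and 15.7% in library 2, nearly all of it Mir206. The 5 Hox cluster miRNAs took 0.0228% and 1.91%. Library 2 thus has few counts of the miRNAs that mark neurons, although its label names cortex. Whether library 2 holds cortex alone is not settled by these values, so each direction below is between libraries as labelled, and a mean with its SD describes these 2 libraries rather than replicate cortex samples. Because there is 1 group and the counts were known beforehand, levels and ratios are described and not tested. Ratios are library 1 over library 2. Intervals are exact 95% intervals for counting error only, which they may understate, since amplified reads lack molecular identifiers.

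The miR-181 genes together had 58581 counts in library 1 and 7862 in library 2. That is 1.95% of miRNA counts in library 1 (exact binomial interval 1.94 to 1.97) and 0.220% in library 2 (0.215 to 0.225), a mean of 1.09% ± 1.23 (SD, n = 2). The family was thus 8.89-fold higher in library 1 (8.68 to 9.10), or 3.15 on the log2 scale. The median log2 ratio over the 463 miRNA genes with at least 10 counts summed was 1.67, with a count of 0 set to 3 counts. TMM scaling, which aligns the bulk of the genes, took 1.40 off every log2 ratio and left the family at 1.75. In these bulk samples, fewer cells of a type and less RNA per cell cannot be told apart, and the part of the marker differences in the miR-181 values was not tested.

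Mir181d, the member nearest in its 5p strand to miR-181b, had the highest count of the family in each library, 29533 in library 1 and 2379 in library 2. Its level was 9848 CPM in library 1 (exact Poisson interval 9736 to 9960) and 665 CPM in library 2 (638 to 692), a 14.8-fold ratio (14.2 to 15.4). It ranked 23 of the 2202 genes in library 1 and 92 in library 2. Mir181d had the widest gap between libraries of the 6 members.

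Mir181c, its neighbour in the same intron, had 12342 counts in library 1 and 2319 in library 2. That is 4115 CPM (4043 to 4189) in library 1 and 648 CPM (622 to 675) in library 2, a 6.35-fold ratio (6.07 to 6.64). Mir181d was thus 2.39-fold above Mir181c in library 1 (2.34 to 2.44) and 1.03-fold in library 2 (0.968 to 1.09), where the interval spans equal counts. The share of Mir181c in the pair was 29.5% in library 1 (29.0 to 29.9) and 49.4% in library 2 (47.9 to 50.8), a contrast that no scaling of the libraries can alter. Neither gene shares a stretch of 22 nt with another miRNA gene.

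Mir181a-1, the first hairpin of the chromosome 1 cluster, had 8291 counts in library 1 and 1138 in library 2. Its level was 2765 CPM (2705 to 2825) in library 1 and 318 CPM (300 to 337) in library 2, an 8.69-fold ratio (8.17 to 9.26). Mir181b-1, 97 bases downstream, had 85 counts in library 1 and 37 in library 2, or 28.3 CPM (22.6 to 35.0) and 10.3 CPM (7.28 to 14.3). In this cluster the placed counts of the a hairpin were therefore 97.5-fold those of the b hairpin in library 1 (78.8 to 122) and 30.8-fold in library 2 (22.2 to 43.9).

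The chromosome 2 cluster had the reverse order. Mir181b-2 had 8229 counts in library 1 and 1954 in library 2, which is 2744 CPM (2685 to 2804) and 546 CPM (522 to 571), a 5.02-fold ratio (4.78 to 5.28). Mir181a-2 had 101 counts in library 1 and 35 in library 2, or 33.7 CPM (27.4 to 40.9) and 9.78 CPM (6.81 to 13.6). Here the b hairpin was 81.5-fold above the a hairpin in library 1 (67.0 to 100) and 55.8-fold above it in library 2 (40.0 to 80.4). By reads that could be placed, each cluster with shared 5p strands thus had 1 high and 1 low hairpin in both libraries. The a copy was the high one on chromosome 1 and the b copy on chromosome 2. How many reads of each hairpin were placed at several sites is not known, so the folds in both clusters are uncertain as levels.

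**Figure D1:**
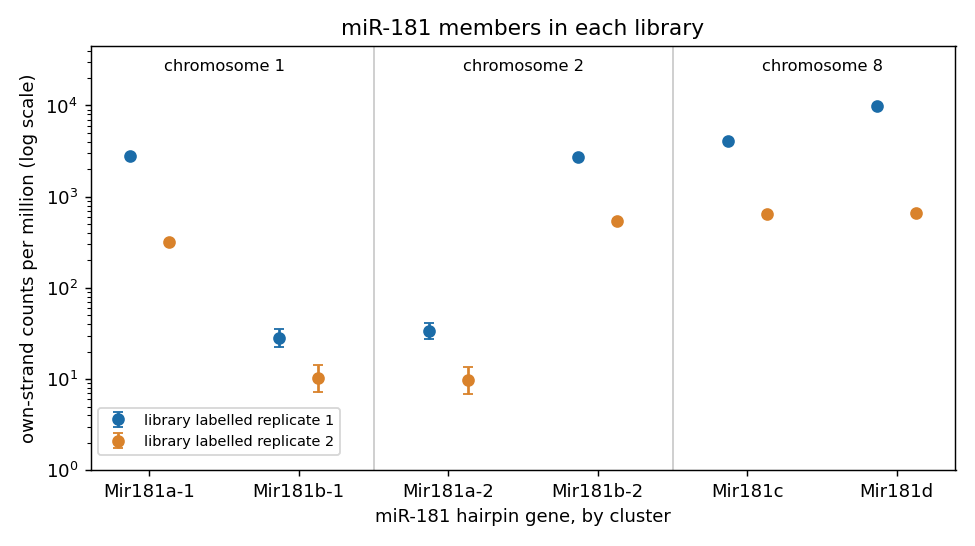
CPM (counts scaled to library totals, log scale) of the 6 miR-181 hairpin genes by cluster, with library 1 left of library 2 for each gene; bars are exact 95% Poisson intervals, which cover counting error only. Mir181b-1 and Mir181a-2 lie between 9.78 and 33.7 CPM, while the other members lie between 318 and 9848 CPM, and each member is higher in library 1.

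By mean CPM the order was Mir181d, Mir181c, Mir181b-2, Mir181a-1, Mir181a-2 and Mir181b-1. It was the same per nt of hairpin, with means of 73.0, 26.8, 18.5, 17.7, 0.286 and 0.242 CPM per nt. This is an order of reads that could be placed. The 5p strands of the a and b copies each occur in 2 miRNA genes, and those of Mir181c and Mir181d in 1. Reads of the a and b copies may thus be missing, so the order is uncertain as one of mature strand levels. The spread between libraries was as large as most of these steps: Mir181d averaged 5256 ± 6493 CPM and Mir181a-1 averaged 1541 ± 1730 CPM (SD, n = 2). Within a library, counting error alone left some neighbours unresolved. Mir181b-2 and Mir181a-1 did not differ beyond their intervals in library 1, with 30.8 (30.2 to 31.5) and 31.8 (31.1 to 32.5) CPM per nt. In library 2 Mir181b-2 stood at 6.14 CPM per nt (5.87 to 6.41), above the 3.66 (3.45 to 3.87) of Mir181a-1. Mir181a-2 and Mir181b-1 overlapped in both libraries. Mir181d and Mir181c overlapped in CPM in library 2. Per nt of hairpin Mir181d had 9.23 (8.87 to 9.61) and Mir181c 7.28 (6.99 to 7.58). That gap comes mostly from the hairpin lengths of 72 and 89 nt, so these genes stay unresolved in library 2.

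Summed by cluster, the chromosome 8 pair held most miR-181 counts. Mir181c and Mir181d made up 71.5% of them in library 1 (exact binomial interval 71.1 to 71.8) and 59.8% in library 2 (58.7 to 60.8), a mean of 65.6% ± 8.29 (SD, n = 2). The chromosome 1 pair made up 14.3% in library 1 (14.0 to 14.6) and 14.9% in library 2 (14.2 to 15.8), which overlap. The chromosome 2 pair made up 14.2% in library 1 (13.9 to 14.5) and 25.3% in library 2 (24.3 to 26.3). The clusters on chromosomes 1 and 2 were level in library 1 and apart in library 2. Since reads that match both copies are given to neither, the shares of these clusters may be too low beside that of chromosome 8, and the size of that effect was not tested.

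**Figure D2:**
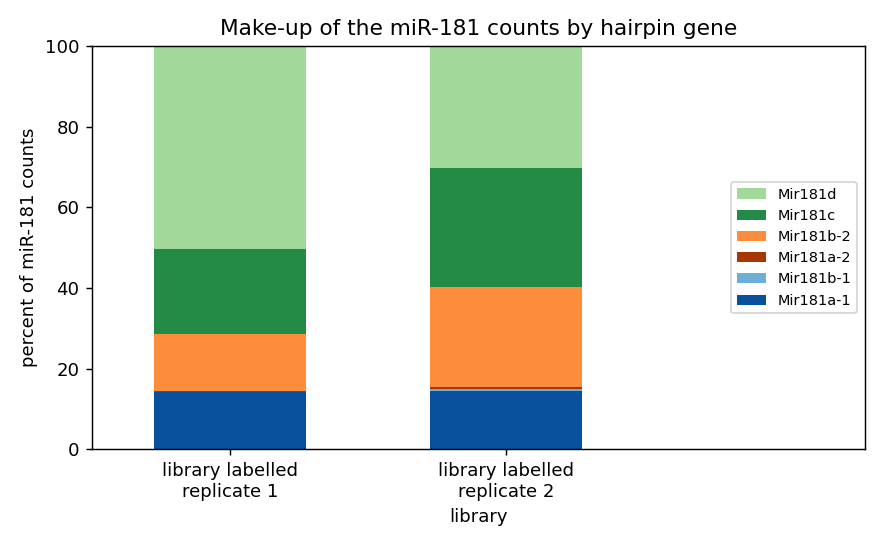
Percent of all miR-181 counts given to each hairpin gene in library 1 (left) and library 2 (right). Mir181d takes 50.4% in library 1 and 30.3% in library 2, Mir181c takes 21.1% and 29.5%, Mir181b-2 takes 14.0% and 24.9%, and Mir181a-1 takes 14.2% and 14.5%; Mir181a-2 and Mir181b-1 are each under 1%.

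All 6 members were at least 2-fold higher in library 1, where 57.9% of the 463 miRNA genes were, and 0 were at least 2-fold lower, where 21.6% were. At 4-fold, 4 of 6 members (Mir181d, Mir181a-1, Mir181c and Mir181b-2) were higher, beside 44.3% of genes. The median log2 ratio was 2.50 over the members, from 1.45 (Mir181b-1) to 3.89 (Mir181d), beside 1.67 over all 463 genes. With TMM the member median was 1.09, beside 0.27 over all genes, and 3 of 6 members (Mir181d, Mir181a-1 and Mir181c) were at least 2-fold higher, beside 36.5% of genes. With DESeq2 size factors this was also 3 of 6, beside 34.3% of genes. Among the 463 genes, 85 had a higher ratio than Mir181d, 123 than Mir181a-1, 150 than Mir181c, 180 than Mir181b-2, 224 than Mir181a-2 and 242 than Mir181b-1. The log2 ratios of the low copies, 1.78 for Mir181a-2 (1.22 to 2.38) and 1.45 for Mir181b-1 (0.88 to 2.05), had intervals that hold the median of all genes; under DESeq2 size factors that of Mir181b-1 turned to -0.10.

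**Figure D3:**
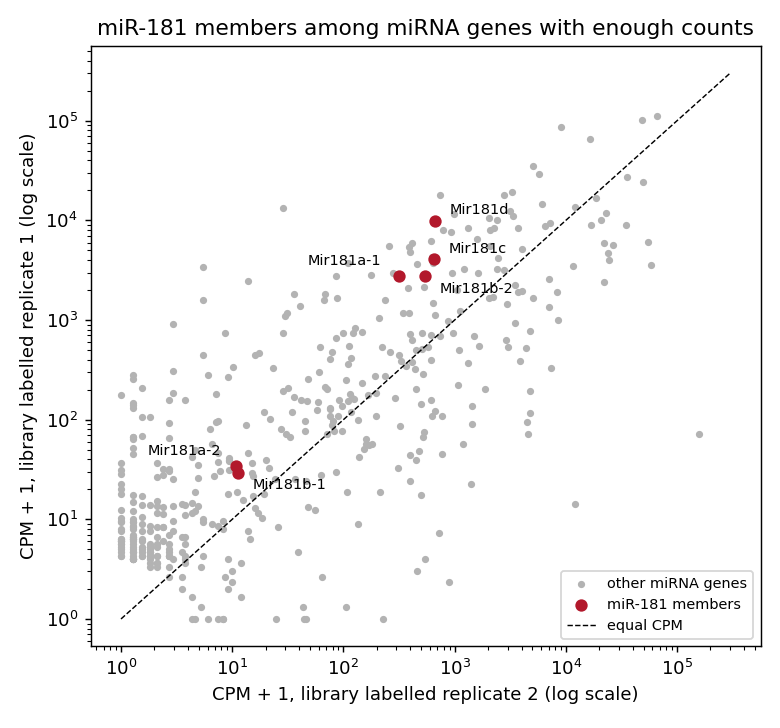
CPM + 1 of each of the 463 miRNA genes with at least 10 counts summed, in library 2 (x axis) and library 1 (y axis), both on log scales; red points are the miR-181 members and the dashed line marks equal CPM. All 6 members lie above the line, as do most grey points, and Mir181a-2 and Mir181b-1 lie apart from the other members at the low end.

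The split of hairpin gene counts between the a copies and between the b copies can be set beside that of other miRNAs with copies. These counts pool both arms, so they do not show how a mature strand splits between its copies. Mir181a-1 held 98.8% of the counts of the a copies in library 1 (exact binomial interval 98.5 to 99.02) and 97.0% in library 2 (95.9 to 97.9). Mir181b-2 held 98.98% of the counts of the b copies in library 1 (98.7 to 99.2) and 98.1% in library 2 (97.4 to 98.7). Of 8 other copied miRNAs with at least 100 counts in library 1, the copy with the higher mean CPM held between 42.1% (Mir26a-2) and 85.0% (Mir218-2 and, to this precision, Mir103-2) there. Mir26a-2 was not the leading copy in library 1, where Mir26a-1 had 272 counts against its 198. Mir128-1, the leading copy of a neuronal miRNA, held 76.7% in library 1 and 65.5% in library 2. In library 2 Mir26a-2 held 95.04% (89.5 to 98.2), an interval that reaches those of the miR-181 copies. Shared stretches were 22 to 33 nt in these 8, so the splits of all these copies rest on reads that could be placed.

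**Figure D4:**
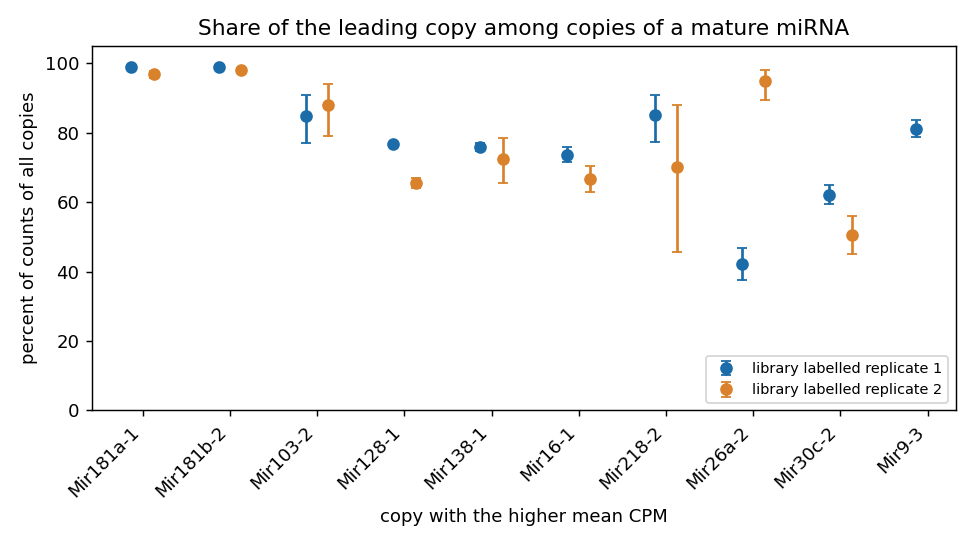
Percent of the hairpin gene counts (both arms pooled) of all copies of a miRNA held by the copy with the higher mean CPM. Shown are miR-181a, miR-181b and 8 other copied miRNAs, with library 1 left of library 2. Bars are exact 95% binomial intervals, and Mir9-3 is shown for library 1 alone because its copies had 2 counts in library 2. Mir181a-1 and Mir181b-2 lie between 97.0% and 98.98% in both libraries.

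The genes closest to each member over the 2 libraries were found by Euclidean distance between log2(CPM + 1) values. Mir140 (distance 0.092; 13012 and 2237 counts in libraries 1 and 2) and Mir370 (0.139) were nearest to Mir181c. Mir107 (0.224; 8887 and 990 counts) and Mir1983 (0.478) were nearest to Mir181a-1. Mir296 (0.372; 24296 and 2815 counts) and Mir324 (0.590) were nearest to Mir181d, and Mir484 (0.347) and Mir320 (0.497) to Mir181b-2. These neighbours sit on other chromosomes than their members, apart from Mir140, which is also on chromosome 8. Mir758 was close to both low copies, at 0.285 from Mir181b-1 and 0.257 from Mir181a-2, with Snord43 (0.401) and Mir669e (0.247), Mir669e lying on chromosome 2 like Mir181a-2, as the other neighbours. The family sum was nearest to Mir99b (0.359) and Mirlet7e (0.588).

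Other families with paralogous clusters went different ways between these libraries. The miR-99/100, let-7 and miR-125 clusters took 12.8% of counts in library 1 and 2.84% in library 2, and 8 of 9 genes were at least 2-fold higher in library 1, beside 57.9% of all 463 genes, with a median log2 ratio of 2.53, beside 1.67. The miR-23/27/24 clusters took 1.65% in library 1 and 5.09% in library 2, and 0 of 6 genes were at least 2-fold higher and 5 were lower in library 1 (median -2.22), beside 21.6% of all genes lower. The direction of the miR-181 members and of the miR-99/100, let-7 and miR-125 clusters is that of most of the 463 genes.

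Marker lists of cell types differed in direction between the libraries. Of the 13 neuron markers, 9 had at least 10 counts summed and 9 of 9 were at least 2-fold higher in library 1, with a median log2 ratio of 5.09, beside 2.50 for the miR-181 members; over all 463 genes the share was 57.9% and the median 1.67. Mir128-1 had 53592 and 2623 counts in libraries 1 and 2, and Mir137 had 40242 and 99. Of the 4 microglia and leukocyte markers in the tables, Mir150, a lymphocyte miRNA, was at least 2-fold higher in library 1 with 1208 and 267 counts, and Mir223, a myeloid miRNA, was lower with 151 and 546. Mir142 (323 and 701 counts) and Mir155 (229 and 346) were also lower in library 1, by less than 2-fold. The median log2 ratio of these markers was -0.60. That list took 0.0637% of counts in library 1 and 0.0520% in library 2, and 0 of 4 were at 0 in either. Oligodendrocyte markers took 0.0616% of counts in library 1 and 0.0454% in library 2, and 2 of 3 with enough counts were at least 2-fold higher in library 1 (median 2.22). Most of that share was Mir338, with 1491 and 1610 counts in libraries 1 and 2, while Mir219a-2 had 314 and 3. Epithelial markers took 0.156% and 0.475%, with 1 of 7 higher and 2 lower in library 1 (median 0.08), the lower ones being Mir203 (2780 and 12608 counts) and Mir205 (19 and 2588). Vascular markers took 1.71% and 4.70%, with 0 of 3 higher and 1 lower (median -0.93), and red blood cell markers 0.00167% and 0.00682%, with 2 of 2 lower (median -1.80). Over all 463 genes, 21.6% were at least 2-fold lower in library 1. The part of any of these lists in the miR-181 difference was not tested.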

How the data were processed

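Small RNA was sequenced in 2 libraries that form 1 group. The deposited tables hold unnormalized counts of reads by miRNA gene (either strand, own strand and opposite strand, as in STAR gene counts), each from 1 library. The build is mm10 and the annotation GENCODE M21, per the text deposited with the tables; the tools that placed and counted the reads are not given here. Reads given to no gene (not placed, placed at several sites, outside miRNA genes) stayed out of library sizes. They were 18.4%, 46.1% and 5.55% of library 1, and 6.11%, 39.8% and 1.47% of library 2.

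Own-strand counts were scaled to CPM by their totals. All 2202 identifiers matched GENCODE M21 (0 without a match). Level intervals are exact Poisson, and share and ratio intervals exact Clopper-Pearson, at 95%. Ratios carry no prior. A gene was taken into the background with at least 10 counts summed and called when 2-fold apart. No significance test was run: there is 1 group, and the members, lists and named genes were chosen with earlier results of these data known. Genes named are the 6 members, the 2 nearest genes of each, and up to 3 of each list by mean CPM. The Mir124a and Mir9 copies, Mir26a-1, Mir26a-2, Mir103-2, Mir218-2, Mir155 and Mirlet7i were named after their values were seen. Shared stretches were searched in the GENCODE M21 hairpins, not in the genome. The code for the ratio and its interval was run on simulated counts with known ratios before use. Alternatives were unstranded counts, each library alone, all reads as the total, the most abundant gene left out, TMM (edgeR), DESeq2 size factors, a prior of 1 CPM, filters of 1 and 100 counts and a 4-fold limit; leaving out Mir206 was added after seeing the data. Python 3.11.15 was used with scipy 1.17.1, numpy 2.4.6 and matplotlib 3.10.9, and R 4.3.3 with DESeq2 1.42.0 and edgeR 4.0.16.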

Additional observations from a re-analysis of the deposited data

How the results depend on the processing

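The direction of the family's ratio between libraries was the same under all alternatives run, but its size followed the scaling. The log2 ratio of 3.15 became 3.05 with unstranded counts, 1.75 with TMM, 1.60 with DESeq2 size factors and 2.91 with Mir206 left out of the totals. The count of members at least 2-fold higher in library 1 was 6 with total counts, beside 57.9% of the 463 genes. It was 3 with TMM, beside 36.5% of genes, and 3 with DESeq2 size factors, beside 34.3%. At a limit of 4-fold it was 4, beside 44.3% of genes. The count was also 6 with no filter and 6 with a filter of 100 counts, which could not change it, since every member passes both. It was 6 with Mir206 left out as well. For these last settings the share of all genes was not computed. The ratio of Mir181b-1, 1.45 with total counts, was 0.05 with TMM and -0.10 with DESeq2 size factors. The shares of the clusters and the ratios inside a library do not depend on scaling. Unstranded counts could not change them either, because no member had opposite-strand counts. Each library alone gave 0.220% to 1.95% for the family share, 59.8% to 71.5% for the chromosome 8 cluster, 14.3% to 14.9% for chromosome 1 and 14.2% to 25.3% for chromosome 2. With 2 libraries, a single library always lies within 1 SD of the mean, so this says nothing about stability; a ratio between libraries cannot be had from 1. The mean family share was 0.350% when scaled to all reads and 1.22% with Mirlet7i left out. No paired analysis was possible because there is a single group. The low copies rest on 35 to 101 counts, which limits their ratios, and reads placed at several sites limit all 4 copies of a and b.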
